A study of Mus musculus with 2 samples.

Results

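The genes described here carry out the last steps of sugar digestion in the small intestine, the entry of sugars into the absorptive cell and the first reactions of fructose and galactose inside it. They were chosen by gene symbol, and every probeset of the array that the annotation assigned to 1 of 9 named genes was taken. A probeset is a group of short probes that together read 1 transcript. Of the 9 genes, 7 were read, by 8 probesets, out of 18193 genes that the array named singly. They were the disaccharidase genes Lct, Mgam and Treh, the transporter genes Slc5a1, Slc2a2 and Slc2a5, and Khk. Sis (sucrase-isomaltase) and Galk1 (galactokinase) were matched to no probeset, so their expression was not analysed here.

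One group was fed the sHFf-F2 diet, called EPA&DHA, in which a concentrate with 6% EPA and 51% DHA took the place of 44% of the lipids. The control group was fed the sHFf diet, in which all lipid came from flax-seed oil, rich in the plant n-3 fatty acid ALA. Both groups were male C57BL/6J mice, an inbred strain, aged 4 months, and ate a semisynthetic diet with 20% fat by weight for 4 weeks. RNA from 11 EPA&DHA mice and from 10 control mice was combined into 1 pool per diet, and each pool was hybridized to 1 array, so no replicate error exists and no p-value was computed.

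Disaccharidases sit in the brush border, the outer membrane of the enterocyte, and cut sugars of the diet into glucose, galactose and fructose. SGLT1, the product of Slc5a1, then carries glucose and galactose into the cell together with sodium, while GLUT5, the product of Slc2a5, carries fructose, and GLUT2, the product of Slc2a2, moves all of these sugars mainly across the basal membrane toward the blood. Ketohexokinase, the product of Khk, phosphorylates fructose and so keeps it in the cell. Transcription of the disaccharidase genes is known to depend on intestinal factors of the CDX, GATA and HNF families, and the carbohydrate response factor ChREBP binds sites made of E-box letters.

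The stretches before the start sites of Lct, Mgam and Slc5a1 are shown because factors that can bind such letters were measured on the same arrays and are given further on. They are the 250 bases upstream of the RefSeq start site in build GRCm38.p6, 5′ to 3′ on the strand of the gene. Capitals mark matches on either strand to any of 5 short motifs. The motif TTTAT stands for CDX factors, and AGATAA for factors of the GATA family. Part of the HNF1 site is written GTTAAT, and the E-box is written CACGTG. The core of nuclear receptor sites, those of PPARα among them, is AGGTCA. Lct lies at chr1:128328319-128328568 (minus strand), Mgam at chr6:40628581-40628830 (plus strand) and Slc5a1 at chr5:33103969-33104218 (plus strand).
Lct: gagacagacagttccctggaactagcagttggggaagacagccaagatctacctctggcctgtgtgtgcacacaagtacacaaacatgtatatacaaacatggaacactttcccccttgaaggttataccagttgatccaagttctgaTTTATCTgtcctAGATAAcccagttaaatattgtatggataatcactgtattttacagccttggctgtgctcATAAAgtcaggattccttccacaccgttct
Mgam: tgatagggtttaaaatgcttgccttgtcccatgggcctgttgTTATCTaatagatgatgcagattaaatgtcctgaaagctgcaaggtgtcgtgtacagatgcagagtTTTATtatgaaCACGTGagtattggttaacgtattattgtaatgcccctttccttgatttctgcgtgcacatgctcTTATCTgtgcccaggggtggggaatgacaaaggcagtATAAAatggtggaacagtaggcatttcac
Slc5a1: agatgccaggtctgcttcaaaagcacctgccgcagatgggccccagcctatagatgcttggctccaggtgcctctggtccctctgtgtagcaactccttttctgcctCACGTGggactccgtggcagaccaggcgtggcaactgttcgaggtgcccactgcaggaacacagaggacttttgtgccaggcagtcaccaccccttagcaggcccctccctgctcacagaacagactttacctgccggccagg

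Lct and Mgam each held TTTAT or its reverse complement 2 times and AGATAA or its reverse complement 2 times. In Lct the first of each overlapped, and in Mgam 1 reverse complement of TTTAT lay inside a TATA box sequence. Over the 9 genes, TTTAT was found in 3 (Sis, Lct and Mgam) and in 37.3% of all 32851 RefSeq start-site windows of this length. AGATAA was found in 2 of the 9 and in 9.99% of all windows, and CACGTG in 4 of the 9 (Mgam, Slc5a1, Khk and Galk1) and in 6.02% of all. GTTAAT was found in Sis and Khk and in 6.43% of all windows. AGGTCA was found in Treh and Slc2a2 and in 14% of all windows. A match is a run of letters and shows no binding.

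On the arrays, 6 of the 7 genes had nearly the same signal on both diets, and Slc5a1 had probesets that disagreed. Signals are MAS 5.0 values on a linear scale, scaled by the authors so that the trimmed means of the arrays are equal, and a log2 ratio is that of EPA&DHA over control. As a yardstick, the local SD is the robust SD of log2 ratios over the 500 probesets of most similar signal. It includes whatever differed between the pools and does not replace a replicate error.

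Lct encodes lactase, which cuts milk sugar. Its signal was 24409 in the EPA&DHA pool and 26044 in the control pool, a log2 ratio of -0.09 with a local SD of 0.20. Mgam encodes maltase-glucoamylase, which releases glucose from the ends of starch fragments. Its signal was 26628 in the EPA&DHA pool and 26245 in the control pool, a log2 ratio of 0.02 with a local SD of 0.20. Treh encodes trehalase, which cuts the sugar of fungi and insects into glucose. Its signal was 10504 in the EPA&DHA pool and 10341 in the control pool, a log2 ratio of 0.02 with a local SD of 0.24. For each of these enzymes the difference between pools was smaller than the local SD. The sign was the same under all scalings for Mgam and Lct, but after quantile normalization Lct was at -0.001, hardly different from 0. Treh changed to -0.03 under the same scaling.

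**Figure D1:**
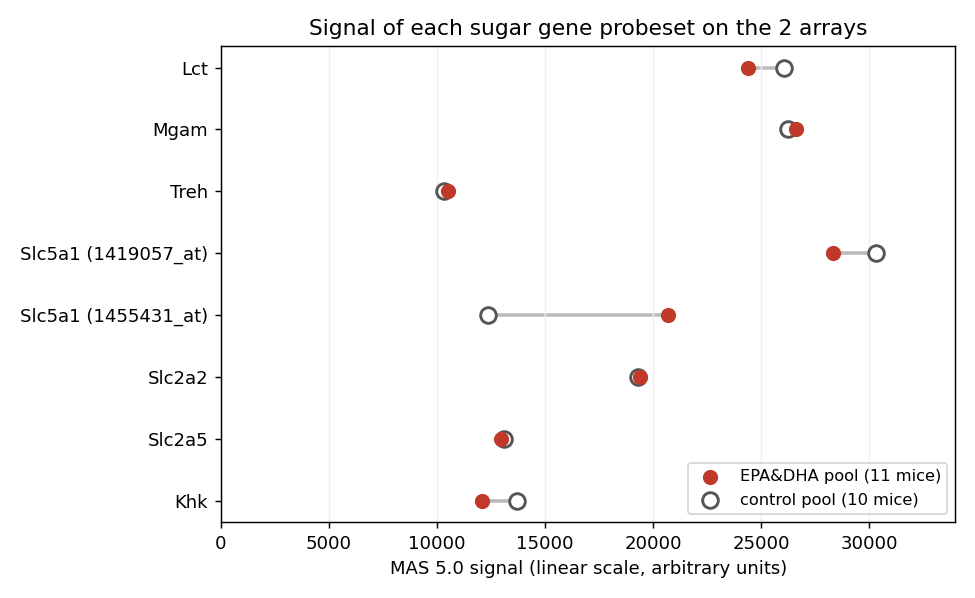
MAS 5.0 signal (x axis, linear) of each probeset of the 7 measured sugar genes in the EPA&DHA pool (red, 11 mice) and the control pool (open, 10 mice), 1 array each and no error bars. The points of a probeset lie close together for all but 1455431_at of Slc5a1, which had 20716 in the EPA&DHA pool and 12383 in the control pool.

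Slc5a1 was read by a pair of probesets. Probeset 1419057_at had a signal of 28348 in the EPA&DHA pool and 30337 in the control pool, a log2 ratio of -0.10 with a local SD of 0.20. Probeset 1455431_at had 20716 in the EPA&DHA pool and 12383 in the control pool, which is 1.67-fold higher, a log2 ratio of 0.74 with a local SD of 0.21. The first thus put SGLT1 transcript within 1 local SD of no difference, and the second put it 3.62 local SDs above. The log2 ratios of the pair lay 0.84 apart. Among 5350 genes with 2 or more kept probesets, 10.4% had their brightest pair at least that far apart, and among the 110 genes in which both had a mean signal of at least 10000, 3 had (Slc5a1 included). The median gap in those 110 genes was 0.15. Which stretch of the transcript each probeset reads was not analysed here, so neither ratio can be preferred from these values, and the direction for Slc5a1 depends on the probeset.

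Slc2a2 and Slc2a5 were read by 1 probeset each, so whether probesets agree could not be seen for them. The signal of Slc2a2 was 19395 in the EPA&DHA pool and 19300 in the control pool, a log2 ratio of 0.01 with a local SD of 0.19. Slc2a5 had 12961 in the EPA&DHA pool and 13093 in the control pool, a log2 ratio of -0.01 with a local SD of 0.23. The 0.492% and 1.01% by which these transporters differed between pools were far under their local SDs, and the sign for Slc2a5 turned to 0.02 after median centring and after the loess correction.

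Khk had the lowest log2 ratio of the 7 genes. Its signal was 12079 in the EPA&DHA pool and 13710 in the control pool, 11.9% lower, a log2 ratio of -0.18 with a local SD of 0.22. It stayed below 0 under every scaling, between -0.21 and -0.15, but within its local SD. In RNA of a tissue, fewer cells of a type and less transcript per cell cannot be told apart, for Khk as for the other genes.

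Taking each gene by its brightest probeset, 3 of 7 genes lay above 0 and 4 below, all within 1 local SD, and 0 of 7 were at least 1.5-fold apart in either direction. Of all 11756 genes with a kept probeset, 14.3% were that far apart, 6.24% higher and 8.02% lower, so that 1 of 7 would correspond to the share of all genes, and a count of 0 is close to it. The median log2 ratio of the 7 genes was -0.01, and that of all genes was -0.05. By single probesets, 1 of 8 was higher by 1.5-fold or more and 0 were lower, against 17.1% of the 24461 kept probesets in either direction, 8.11% higher and 9.01% lower. None of the 8 passed 2-fold, which 4.94% of kept probesets did.

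All 8 probesets were bright. Between 96.8% and 99.7% of kept probesets had a lower mean signal, and ratios vary less at such signals. Among the 806 probesets with a mean signal of at least 10000, a limit set after the signals of these genes were known, 2.36% were at least 1.5-fold apart, 2.11% higher and 0.248% lower. Probeset 1455431_at of Slc5a1 was thus 1 of 17 bright probesets on the higher side. The median log2 ratio of these 806 was -0.06. The highest signal on an array was 50955 for EPA&DHA and 63898 for control, and the highest of any sugar gene was 30337. Whether such signals still follow the amount of transcript in proportion was not tested.

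**Figure D2:**
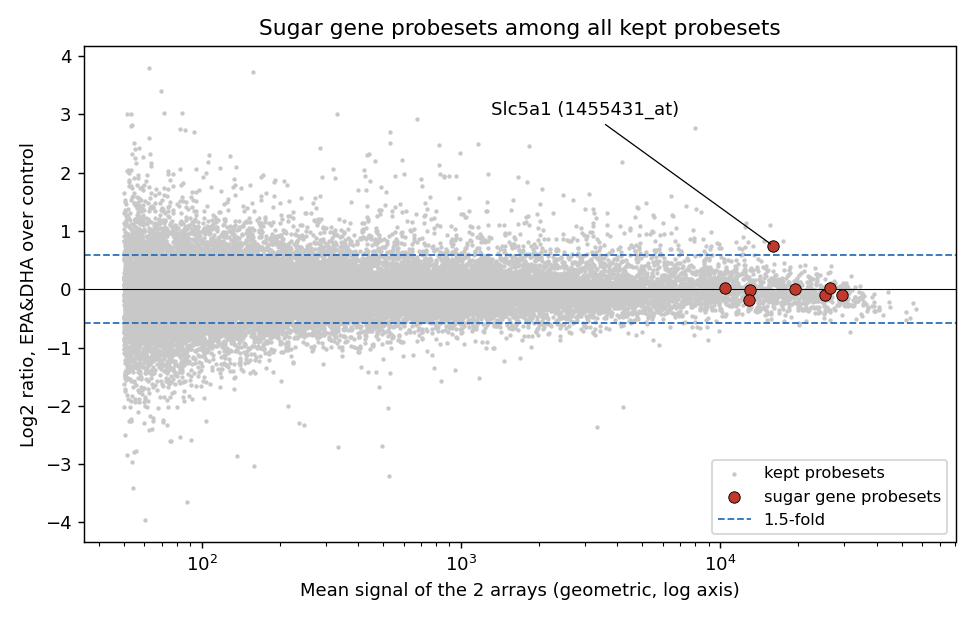
Log2 ratio of EPA&DHA over control (y axis) against the mean signal of both arrays (x axis, log) for 24461 kept probesets (grey) and the 8 sugar gene probesets (red), with dashed lines at 1.5-fold. The sugar gene probesets lie at the bright end, 7 of them near 0 and 1455431_at of Slc5a1 at 0.74.

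Scaling the arrays in other ways moved these ratios little. The median of the 7 genes lay between -0.01 and 0.02 under all scalings and probeset rules, and 1455431_at lay between 0.74 and 0.78. Quantile normalization turned the sign of 1419057_at to 0.03 and raised Mgam to 0.13.

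**Figure D3:**
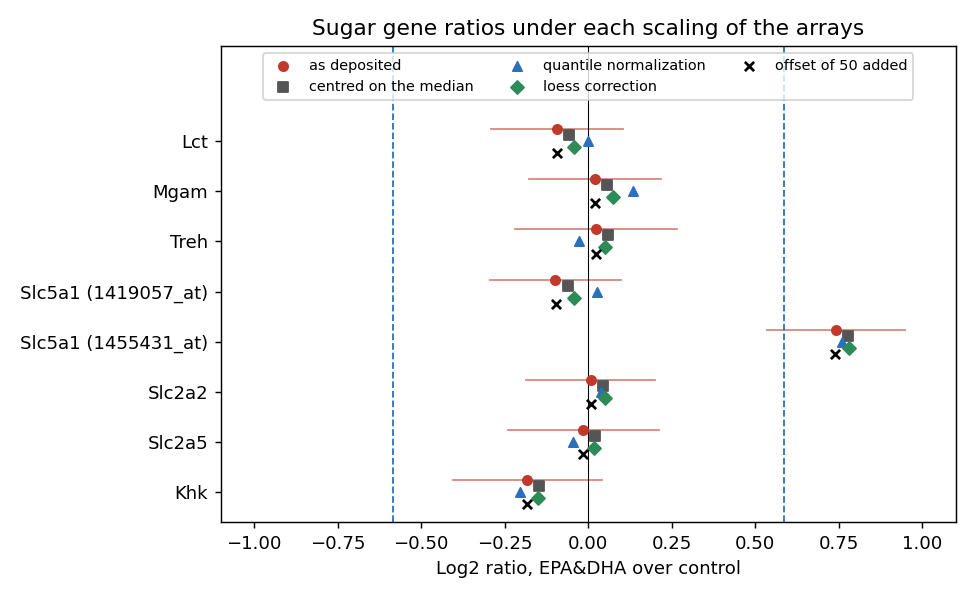
Log2 ratio of EPA&DHA over control (x axis) for each sugar gene probeset as deposited (red, with a bar of 1 local SD to each side) and under 3 other scalings and an added offset, with dashed lines at 1.5-fold. Each ratio other than that of 1455431_at, which ranged from 0.74 to 0.78, stayed between -0.21 and 0.13.

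Related genes were gathered in 5 lists, of which 50 of 67 genes were measured. Past 1.5-fold there were 0 higher and 2 lower genes, or 4% against the 14.3% of all genes. The median log2 ratio was -0.04. The lists were written with results of these arrays known.

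Of 8 measured enzymes of fructose and galactose use outside the members, 0 were at least 1.5-fold apart. The highest was Galk2, a kinase of N-acetylgalactosamine, with a signal of 932 in the EPA&DHA pool and 748 in the control pool, a log2 ratio of 0.32. The lowest was Tkfc, which phosphorylates glyceraldehyde after fructose has been split, with 1794 in the EPA&DHA pool and 2261 in the control pool, a log2 ratio of -0.33. The local SD there was 0.25. Galt, the uridylyltransferase of galactose breakdown, stood at 0.08.

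Of 15 measured other sugar transporters, 0 were at least 1.5-fold higher and 1 lower on their brightest probesets. The lower one was Slc2a13, a carrier of myo-inositol, with a log2 ratio of -0.84. Its signals of 43.2 in the EPA&DHA pool and 77.1 in the control pool were at the dim end, where the local SD was 0.75. The highest was Slc5a3, another carrier of myo-inositol, at 0.39 on its brightest probeset. The mouse SGLT3 genes, relatives of Slc5a1, differed in sign. The log2 ratio was -0.27 for Slc5a4a with a local SD of 0.23, and 0.32 for Slc5a4b with a local SD of 0.24. Slc2a9 was at 0.24 on its brightest probeset but at -0.67, 1.59-fold lower, on a dimmer one. With the dimmest kept probeset of each gene, 2 of the 15 were at least 1.5-fold lower. The list median was 0.02.

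Of 9 measured genes that assist or sense glucose uptake, 0 were at least 1.5-fold apart on their brightest probesets. Sgk1, a kinase that responds to glucocorticoids and acts on membrane transporters, was the highest with 14631 in the EPA&DHA pool and 10327 in the control pool, a log2 ratio of 0.50 with a local SD of 0.23. Mlxip, a glucose-sensing factor related to ChREBP, was the lowest at -0.26. ChREBP itself, encoded by Mlxipl, had 2905 in the EPA&DHA pool and 3171 in the control pool, a log2 ratio of -0.13. Txnip, which is known to follow glucose through these factors, was at 0.04 and 0.49 on its probesets. Atp1b1, a subunit of the sodium pump that maintains the gradient used by SGLT1, was at -0.09 on its brightest probeset and at -0.28, -0.01, -0.04 and -0.65 on the others, the last of them dim with a signal of 77.4 in the EPA&DHA pool and 122 in the control pool. Mlxipl, Txnip and Atp1b1 were named for their roles after their values were seen.

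Among 12 measured transcription factors of intestinal genes, 0 were at least 1.5-fold apart on their brightest probesets, and the median log2 ratio was -0.08. The extremes were the forkhead factors Foxa2 at 0.19 and Foxa1 at -0.35. Of the factors for the letters marked before Lct and Mgam, also named after their values were seen, Cdx1 had a log2 ratio of 0.07 and Cdx2 of -0.14 and 0.11. In the GATA family, Gata4 had -0.32 and 0.03, Gata5 had -0.27 and -0.36, and Gata6 had 0.16, -0.01 and 0.35. Hnf4a and Hnf4g, also named after their values were seen, are nuclear receptors. The nuclear receptor core AGGTCA was not found before Lct or Mgam. Hnf4a had -0.31 on its brightest probeset and -0.45, 0.54 and -0.31 on the others. Its relative Hnf4g, a nuclear receptor of enterocytes, had a brightest probeset at -0.02 and others at 0.63 and 0.84, a disagreement of the same kind as that of Slc5a1. No HNF1 factor was among the 12 measured genes. Among 6 other glycosidases, Gba2, a glucosylceramidase outside the lysosome, had 71.5 in the EPA&DHA pool and 193 in the control pool, 2.70-fold lower with a local SD of 0.51. The highest of these 6 was Ganab, a glucosidase of the endoplasmic reticulum, at 0.13.

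**Figure D4:**
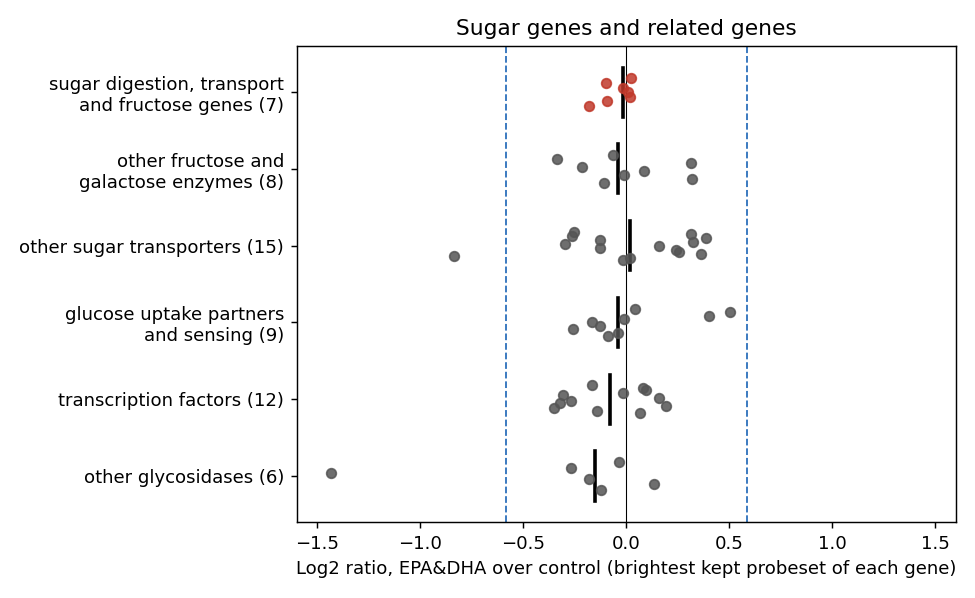
Log2 ratio of EPA&DHA over control (x axis) of each measured gene (points) in the sugar genes (red) and 5 related lists (grey), with the number of genes in brackets, list medians as black bars and dashed lines at 1.5-fold. Each point is the brightest kept probeset of its gene. On these probesets the sugar genes lie between -0.18 and 0.02, and Slc2a13 and Gba2 are the points beyond 1.5-fold. The dimmer probeset of Slc5a1, 1455431_at at 0.74, is not shown.

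The labelled tissue was checked by cell type markers. For comparison, 6.24% of all genes with a kept probeset were at least 1.5-fold higher and 8.02% lower. Genes of absorptive enterocytes, the cells that express the sugar genes, were read at signals from 4506 to 50955 in the EPA&DHA pool and from 2553 to 63898 in the control pool on their brightest probesets. Of 10 measured enterocyte markers, 1 was at least 1.5-fold higher, the peptide transporter Slc15a1 with a log2 ratio of 0.82, and 0 were lower, with 9 below 0 and a median of -0.21, while after quantile normalization 6 lay below 0 and the median was -0.01. Their summed signal was 297633 in the EPA&DHA pool and 354502 in the control pool. The same sum over the 7 sugar genes was 134325 in the EPA&DHA pool and 139070 in the control pool. Markers of the ileum had a median of 0.06 over 5 genes. Those of the proximal intestine, where lactase is mainly made, had a median of -0.32 over 3 genes, of -0.11 after quantile normalization and of 0.03 on the dimmest kept probeset of each gene.

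Markers of other tissue and cell types were read on the same arrays. All 7 measured genes of the exocrine pancreas were at least 1.5-fold higher, against 6.24% of all genes. Their summed signal was 12619 in the EPA&DHA pool and 4415 in the control pool. With averaged probesets, and also with the dimmest kept probeset of each gene, 6 of these 7 were that much higher. Of 5 markers of B and plasma cells, 3 were at least 1.5-fold lower, against 8.02% of all genes, and 0 higher. The count lower was 1 once an offset of 50 was added to each signal. It was 2 with averaged probesets and also with the dimmest kept probeset of each gene. The median of the 5 was -0.65, but -0.11 with the dimmest kept probeset. Jchain, the joining chain of secreted antibodies and the brightest of the 5, had 14860 in the EPA&DHA pool and 11507 in the control pool, a log2 ratio of 0.37, so that the summed signal of the list was 15785 in the EPA&DHA pool and 12798 in the control pool. All 7 goblet cell markers lay below 0 on their brightest probesets with a median of -0.31, 0 of them past 1.5-fold. Nor was any of 4 Paneth cell markers (median -0.16) or 8 enteroendocrine markers (median 0.01) past 1.5-fold on that probeset. Dimmer kept probesets past 1.5-fold were those of the goblet markers Agr2 at 1.37 and Clca1 at -0.93, and of the Paneth marker Lyz1 at -1.49. Of 6 T cell markers, with a median of -0.19, Cd3e was at 0.61 and Cd8a at -0.82 on their brightest probesets. The dimmer kept probesets of Cd8a were at 0.02, -0.26 and -0.52, none past 1.5-fold. Of 6 markers of crypt stem and cycling cells, Olfm4 was 1.65-fold higher. The median of the 6 was -0.11, but 0.42 with averaged probesets and 0.80 with the dimmest kept probeset of each gene. Of the liver markers Alb and Fgb were under the filter, and Ttr had log2 ratios of -0.20, 0.35, 0.64 and -0.14 on 4 probesets. Smooth muscle markers were dim, with a summed signal over 5 genes of 1152 in the EPA&DHA pool and 1332 in the control pool. For Gapdh, signal at the 3′ end over that at the 5′ end, which gauges RNA integrity, was 0.793 for EPA&DHA and 0.932 for control. The same ratio for Actb was 1.16 for EPA&DHA and 1.22 for control. The part of these marker values in the sugar gene values was not tested.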

How the data were processed

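The methods describe scraped epithelial cells, whereas the labels describe whole small intestine. The authors hybridized 1 RNA pool per diet to Affymetrix MOE430_2 arrays, and the deposited intensity values are MAS 5.0 signals (version not given in the sources used here) with a 2% trimmed mean of 500 on both arrays. Detection calls and change p-values were not used here. The table held 45101 probesets, of which 64 controls were set aside. The platform annotation, checked by gene identifier against RefSeq (GRCm38.p6), named 1 gene for 34945, several for 932 and none for 9160.

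Signals were used as deposited. The 24461 probesets with a geometric mean signal of at least 50 were kept. A gene took its brightest kept probeset that names it alone. Fold limits of 1.5 and 2 follow the methods, and with 1 array per diet nothing was tested. All sugar genes were named. In related lists the genes past 1.5-fold, the highest and the lowest were named. Other genes named from these lists were picked outside this rule, with their values known. The members and lists were chosen with earlier results of these data known. Alternatives were median centring, quantile normalization, loess (span 0.3), an offset of 50, no filter, a floor of 100, averaged probesets, probesets without the types that may bind other genes and, added after seeing the data, the dimmest kept probeset. The code was tested on simulated data. Calculations ran in Python 3.11.15 with pandas 2.3.3, loess fits in statsmodels 0.14.6, array arithmetic in numpy 2.4.6 and plots in matplotlib 3.10.9.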

Additional observations from a re-analysis of the deposited data

How the results depend on the processing

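With 1 array per diet no alternative measures differences between mice, and whether the brightest signals follow transcript amount in proportion was not tested. The count of sugar genes at least 1.5-fold apart was 0 under each of the 8 alternatives fixed at the start and 1 with the dimmest kept probeset, where Slc5a1 took 0.74. Averaging its probesets gave 0.32. The count of sugar probesets past 1.5-fold was 1 throughout. Under the 3 other scalings, all 24 values of single sugar probesets moved by less than 1 local SD. The filters, the offset and, for genes with 1 probeset, the probeset rules could hardly move these values, since all 8 probesets are bright. The count of related genes past 1.5-fold was 2 as reported, 1 with the offset and also with a floor of 100, 6 of 55 without a filter, and 5 with the dimmest probeset. All genes past 1.5-fold were 7.62% with the offset, 9.55% with a floor of 100, 34% without a filter and 21% with the dimmest probeset. No paired analysis was possible because each diet has 1 array.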
